A study of Rattus norvegicus with 6 samples.

Results

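A group of 6 genes of the osteoblast and its matrix was followed in rat bone after treadmill exercise: Col1a1, Col1a2, Sparc, Spp1, Bglap and Runx2. They were chosen by Ensembl gene identifier, and all 6 were present among the 32883 rat genes counted. The libraries were made from bone of WT rats (Rattus norvegicus). The 3 exercised animals carry the treatment label "exercise" and the 3 controls the treatment label "no", and the title of the series speaks of moderate-intensity treadmill running in adult rats. The labels do not state the strain, age, sex, bone, duration or speed. The cell type is labelled "oeteocyte", read here as osteocyte, the cell enclosed in mineralized matrix. It could not be checked against osteocyte markers such as Sost and Dmp1, because the count table names genes by identifier only and 0 of its identifiers could be matched to a symbol in the RefSeq gene table for assembly GRCr8. The symbols of the 6 genes are those paired with their identifiers by the rule that chose them, and no annotation used here contradicts or supports the pairing.

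Osteoblasts build bone by secreting a matrix that is mostly type I collagen, a triple helix of α1 chains and an α2 chain, and then mineralizing it. Runx2 is the transcription factor needed for cells to enter the osteoblast lineage, and in rodents it binds short DNA elements in the promoter of Bglap, the gene of osteocalcin. The remaining proteins bind collagen, mineral or cells: Sparc (osteonectin) is a secreted collagen-binding glycoprotein that many connective tissue and endothelial cells also make, and Spp1 (osteopontin) is an acidic phosphoprotein of the mineralized matrix that osteoclasts and macrophages make too. Bone responds to mechanical loading, which is the setting of a comparison between exercised and control animals.

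Of the 6 genes, 5 matched an entry by symbol in the RefSeq promoter table (build GRCr8), which gives 250 bases before and 50 bases after each annotated start. Col1a1 had no entry. The promoters of Bglap and Runx2 are shown because they hold the element that RUNX factors bind, spelled AACCACA. It was searched on both strands together with its shorter core ACCACA, which lies within it. The 250 bases before the Bglap start (chr2:176137319-176137568, minus strand) and before the upstream of the 2 annotated Runx2 starts (chr9:23664808-23665057, plus strand) read, 5′ to 3′ with AACCACA in capitals:
Bglap: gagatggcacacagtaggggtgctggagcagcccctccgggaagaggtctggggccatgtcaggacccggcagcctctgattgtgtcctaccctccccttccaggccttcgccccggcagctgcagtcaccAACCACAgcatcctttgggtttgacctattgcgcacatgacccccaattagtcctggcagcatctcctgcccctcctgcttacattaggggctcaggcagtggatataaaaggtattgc
Runx2: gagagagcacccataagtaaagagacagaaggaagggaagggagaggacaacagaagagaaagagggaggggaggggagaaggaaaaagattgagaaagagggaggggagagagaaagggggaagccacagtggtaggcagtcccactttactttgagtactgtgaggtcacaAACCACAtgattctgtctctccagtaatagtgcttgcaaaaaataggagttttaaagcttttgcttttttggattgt
Just after this Runx2 start, at chr9:23665081-23665101, there were 2 more copies:
Runx2 after the start: aacAACCACAgAACCACAagt

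Bglap held 1 copy of AACCACA, 119 bases before its start, and Runx2 held 3, of which the first began 77 bases before the start and the other two 27 and 35 bases after it. The element occurred on either strand in 5.57% of the 33469 promoter windows of the same length, and its core in 17.3%. Sparc held only the core, 205 bases before the start. Col1a2, Spp1 and the downstream Runx2 start held neither in these windows. These matches describe the letters only.

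The libraries held 14056743 to 18126584 counts, and between 16910 and 18229 genes had at least 1 count. CPM are counts scaled to a library total of 1000000. The first principal component of log2 CPM after TMM scaling, a correction of library size for a few abundant genes, took 65.3% of the variance. Control replicate 3, at -126, and exercised replicate 3, at 117, lay at its ends, so results are also given without them. No marker of marrow, muscle or other tissue could be read by name, and the part of such tissue in the results was not tested. In bulk RNA, fewer cells of a type and less RNA per cell cannot be told apart.

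The 6 genes together took between 0.0651% and 1.12% of all counts, a 17.3-fold range between libraries. Their summed share was 0.276%, 0.275% and 0.0703% in exercised replicates 1, 2 and 3, and 0.178%, 1.12% and 0.0651% in control replicates 1, 2 and 3. Control replicate 2 thus stood above all others, and the third replicate of each group was low. The mean share was 0.207 ± 0.119% in exercised bone and 0.456 ± 0.581% in control bone (SD, n = 3 each). The difference of -0.249 percentage points was smaller than the spread among controls, and it was 0.0855 without control replicate 2. It was -0.375 without the third replicate of both groups. Col1a1, Col1a2 and Sparc supplied between 92.2% and 99.8% of these counts in each library.

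Control replicate 2 was the highest library for all 6 genes, whereas 17.5% of the 14495 tested genes were highest there. Control replicate 3 was the lowest for 5 of the 6, and 47.1% of the tested genes were lowest there. With TMM scaling, which corrects library size for a few abundant genes, control replicate 2 was again highest for all 6, against 7.65% of the tested genes, and control replicate 3 was lowest for 4, against 30.5%. Exercised replicate 3 was lowest for the other 2, against 31.4%. The plot of levels by library shows the shared highest library and the differing place of exercised replicate 3.

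**Figure D1:**
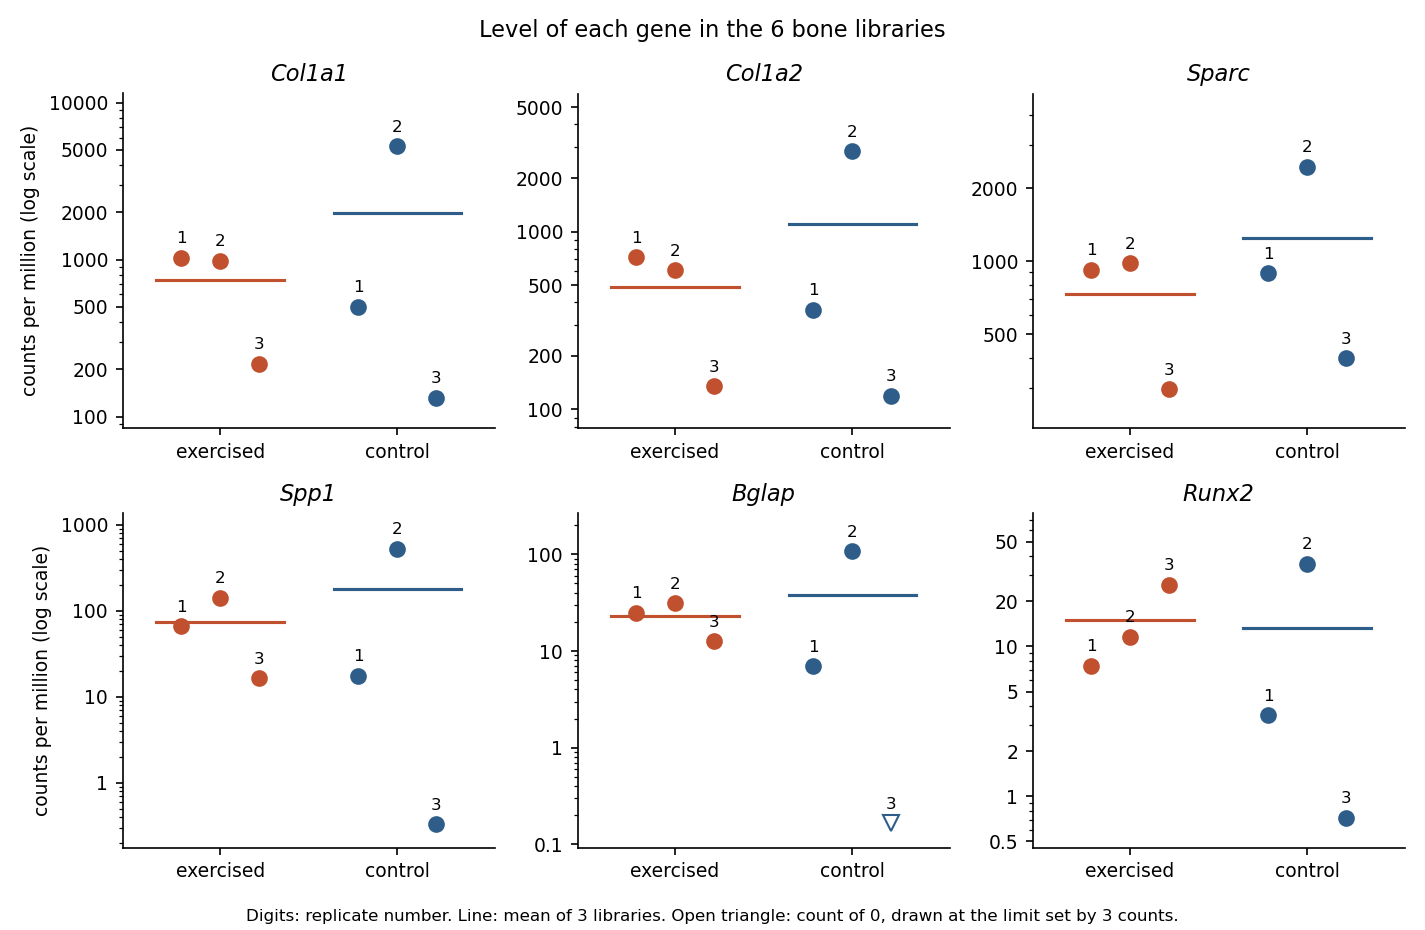
Level in CPM (log axis) of each gene in the 3 exercised and 3 control libraries; digits are replicate numbers, lines are group means and the open triangle is a count of 0 drawn at the limit that 3 counts set. Control replicate 2 is the highest point in all 6 panels, and the groups overlap in each.

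Col1a1 (ENSRNOG00000003897), which encodes the α1 chain of type I collagen, had 1023, 982 and 216 CPM in exercised replicates 1, 2 and 3. It had 499, 5289.7 and 132 CPM in control replicates 1, 2 and 3. The 3 exercised values all lay between the highest and the lowest control. The mean was 741 ± 455 CPM in exercised bone and 1973 ± 2878 CPM in control bone (SD, n = 3 each). The medians ran the other way, at 982 CPM in exercised and 499 CPM in control bone. A single animal, control replicate 2, held 64.97% of the summed CPM of Col1a1 over the 6 libraries.

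Col1a2 (ENSRNOG00000011292), the gene of the α2 chain, had 718, 604 and 135 CPM in exercised replicates 1, 2 and 3, and 363, 2833 and 119 CPM in control replicates 1, 2 and 3. By CPM it ordered the 6 libraries exactly as Col1a1 did, but with TMM scaling the order differed at the low end. On that scale Col1a1 was lowest in control replicate 3 (166, against 185 in exercised replicate 3). Col1a2 was lowest in exercised replicate 3 (116, against 150 in control replicate 3). The mean was 486 ± 309 CPM in exercised and 1105 ± 1501 CPM in control bone (SD, n = 3 each). Its range from highest to lowest was 5.31-fold among exercised animals and 23.7-fold among controls. For Col1a1 the ranges were 4.74-fold among exercised animals and 40.2-fold among controls.

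The balance between the collagen chains moved much less than their levels. There were 1.42, 1.63 and 1.60 counts of Col1a1 per count of Col1a2 in exercised replicates 1, 2 and 3, and 1.37, 1.87 and 1.10 in control replicates 1, 2 and 3. This ratio does not depend on scaling between libraries, and since counts are not corrected for transcript length it is not a ratio of molecules. It spanned 1.69-fold over the 6 libraries. The mean was 1.549 ± 0.109 in exercised and 1.448 ± 0.388 in control bone (SD, n = 3 each), and the log2 ratio differed by 0.13 (two-sided exact permutation test, p = 0.6, adjusted over 5 ratios 0.7; the smallest p that 3 against 3 allows is 0.1). Control replicate 2, with the most collagen counts, had the highest ratio, and control replicate 3, with the fewest, had the lowest.

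Sparc (ENSRNOG00000012840) was the least variable of the 6 genes. It had 921, 979.6 and 297 CPM in exercised replicates 1, 2 and 3, and 891, 2448 and 399 CPM in control replicates 1, 2 and 3. Exercised replicates 1 and 2 and control replicate 1 lay close together, and the lowest value was that of exercised replicate 3. Its range was 8.25-fold over all libraries, and its mean was 733 ± 378 CPM in exercised and 1246 ± 1069.8 CPM in control bone (SD, n = 3 each).

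Spp1 and Bglap, which encode acidic and calcium-binding proteins of the mineralized matrix, varied most. Spp1 (ENSRNOG00000043451) had 66.3, 140.4 and 16.4 CPM in exercised replicates 1, 2 and 3, against 17.5, 525 and 0.331 CPM in control replicates 1, 2 and 3. The last of these rests on 6 counts, and its exact 95% Poisson interval of 0.121 to 0.720 CPM covers counting error only. The highest and lowest exercised animals differed 8.58-fold, while control replicates 2 and 3 differed 1586-fold. The mean was 74.4 ± 62.4 CPM in exercised and 181 ± 298 CPM in control bone (SD, n = 3 each).

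Bglap (ENSRNOG00000019607), whose product osteocalcin is a vitamin K-dependent protein of mature osteoblasts, had 24.97, 31.2 and 12.7 CPM in exercised replicates 1, 2 and 3. It had 6.97 and 107.6 CPM in control replicates 1 and 2 and 0 counts in control replicate 3, which allows up to 0.166 CPM. The exercised libraries thus lay inside the range of the controls and within 2.46-fold of each other. By contrast, control replicate 2 was 650-fold higher than control replicate 3 when the 0 is set to 3 counts, or 0.166 CPM. The mean was 22.9 ± 9.4 CPM in exercised and 38.2 ± 60.2 CPM in control bone (SD, n = 3 each). Spp1 and Bglap were therefore at or near 0 in the library labelled control replicate 3, although that library held 132 CPM of Col1a1 and 399 CPM of Sparc.

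Runx2 (ENSRNOG00000020193) did not follow the matrix genes in every animal. It had 7.41, 11.6 and 25.8 CPM in exercised replicates 1, 2 and 3, and 3.49, 35.5 and 0.717 CPM in control replicates 1, 2 and 3. Exercised replicate 3, low in collagen and Sparc, was the highest exercised library for Runx2 and second overall. The lowest value rests on 13 counts, with an exact 95% Poisson interval of 0.382 to 1.23 CPM. The mean was 14.9 ± 9.7 CPM in exercised and 13.2 ± 19.3 CPM in control bone (SD, n = 3 each).

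The spread of these genes was large beside that of other genes. The SD of TMM-scaled log2 CPM over the 6 libraries was 1.02 for Sparc, 1.60 for Col1a2, 1.77 for Col1a1, 1.78 for Runx2, 3.29 for Bglap and 3.36 for Spp1. The median was 0.44 over the 9288 tested genes that averaged 10 CPM or more. Sparc varied more than 86.9% of those genes, Bglap more than 99.7% and Spp1 more than 99.8%. The Spp1 and Bglap values depend on the prior count of 2 added before the logarithm, since control replicate 3 was at or near 0.

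The correlations between the 6 genes ran from close to weak across the 6 libraries of both groups, and several of the lower ones moved strongly when 2 libraries were left out. The values are Pearson's r and Spearman's rho of log2 CPM with a pseudocount of 0.5 counts, tested over 15 pairs by exact permutation of pairings with Benjamini-Hochberg adjustment; the libraries share their depth and composition with every gene. Col1a1 and Col1a2 were the closest pair (r = 0.995, p = 0.0014, adjusted 0.021; rho = 1.0, p = 0.0028, adjusted 0.042 by the exact permutation test), and r was 0.994 without the 2 libraries farthest from the Col1a1 median, control replicates 2 and 3. Sparc followed both chains, with r = 0.953 to Col1a1 (rho = 0.886) and r = 0.971 to Col1a2 (rho = 0.886), each with an exact permutation p of at most 0.011 for r and 0.033 for rho, adjusted 0.042 for r and 0.056 for rho. Without those 2 libraries r was 0.913 and 0.936.

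Spp1 and Bglap were close to each other (r = 0.969, exact permutation p = 0.0028, adjusted 0.021; rho = 0.943, p = 0.017, adjusted 0.05), and r was 0.913 without control replicates 2 and 3. Spp1 also followed Col1a1 (r = 0.904, p = 0.017, adjusted 0.042; rho = 0.943, p = 0.017, adjusted 0.05 by the same exact test), with r = 0.850 without those libraries. Bglap and Runx2 gave r = 0.893 (exact permutation p = 0.017, adjusted 0.042; rho = 0.829, p = 0.058, adjusted 0.080), but r was 0.361 without control replicates 2 and 3, so that relation rests on those libraries. Col1a1 and Runx2 gave r = 0.641 (exact permutation p = 0.17, adjusted 0.21; rho = 0.6, p = 0.24, adjusted 0.26), and the sign turned without the same libraries, to r = -0.478. Sparc gave r = 0.402 with Runx2, 0.627 with Bglap and 0.773 with Spp1. Without the 2 libraries farthest from the Sparc median, exercised replicate 3 and control replicate 2, these rose to 0.945, 0.991 and 0.970. The low place of these pairs thus also rests on 2 libraries. Control replicate 3 was kept in these higher values, with 13 Runx2, 0 Bglap and 6 Spp1 counts. Its Sparc level, 399 CPM, was the lowest of the libraries kept. Whether the higher values rest on that library was not tested. In all, 6 of the 15 pairs passed an adjusted p of 0.05 by Pearson's r and 1 by Spearman's rho. With TMM-scaled values the pairs Col1a1 with Spp1 and Bglap with Runx2 no longer passed by Pearson's r, each at an adjusted exact permutation p of 0.063. The pair that passed by Spearman's rho, Col1a1 with Col1a2, had identical orders by CPM but not with TMM scaling, so its rho of 1.0 depends on the scaling.

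**Figure D2:**
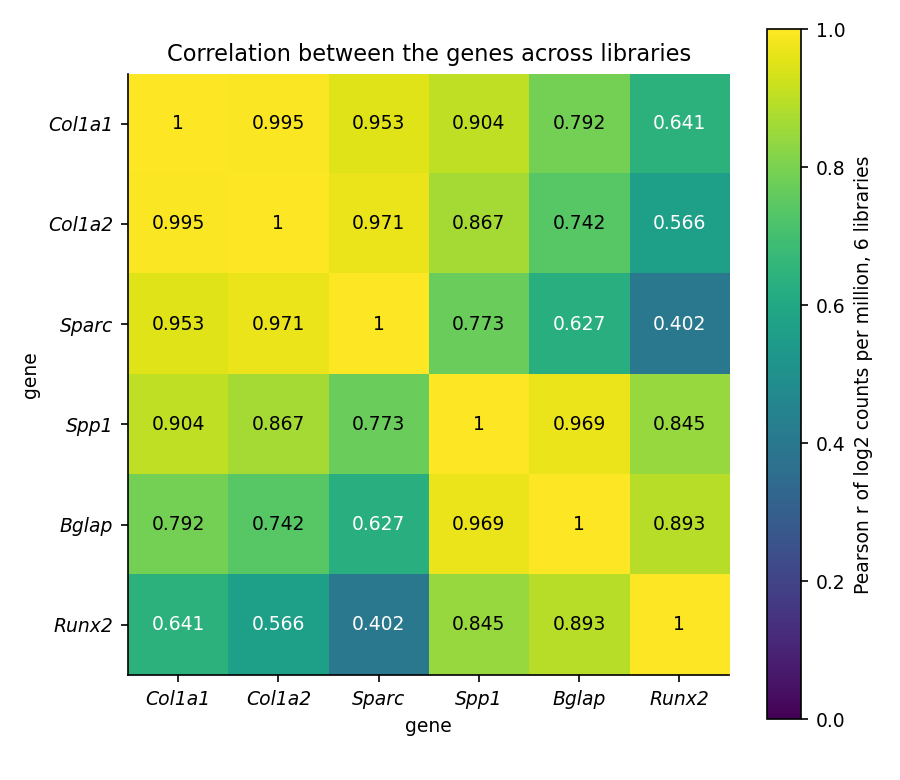
Pearson correlation of log2 CPM between each pair of genes across the 6 libraries; both axes list the genes and colour gives r. The values run from 0.995 for Col1a1 with Col1a2 to 0.402 for Sparc with Runx2.

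Among the 9282 other tested genes that averaged 10 CPM or more, 27 (0.291%) correlated above 0.95 with the mean standardized level of Col1a1 and Col1a2 over the 6 libraries, on TMM-scaled log2 CPM. With library size alone, an alternative chosen after seeing the data, 34 (0.366%) did. The nearest were ENSRNOG00000052925 (r = 0.994, 5.17 to 27.1 CPM in exercised and 2.65 to 131 CPM in control bone) and ENSRNOG00000059244 (r = 0.994, 6.10 to 12.6 CPM in exercised and 4.36 to 24.9 CPM in control bone). The nearest genes kept r = 0.995 and 0.994 with library size alone. The lowest correlations on the TMM scale were those of ENSRNOG00000020892 (r = -0.980) and ENSRNOG00000010234 (r = -0.971), but with library size alone they were only -0.251 and -0.423, so an opposite course is not shown for either gene. They are given by identifier because no symbol could be matched, and the correlations are a description of 6 libraries. On the TMM scale Sparc reached 0.938, Spp1 0.863, Bglap 0.756 and Runx2 0.521, and with library size alone Sparc reached 0.963, Spp1 0.886, Bglap 0.768 and Runx2 0.604.

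No difference between exercised and control bone passed the threshold for any of the 6 genes. With Benjamini-Hochberg adjusted p-values from the edgeR quasi-likelihood fit over 14495 genes, 0 of the 6 had an adjusted p under 0.05, as did 0 (0%) of all genes tested. At an unadjusted p under 0.05 there were 0 of the 6 and 247 (1.7%) of all genes, and DESeq2 called 1 gene, which is not among the 6. The libraries of the groups overlapped in all 6 genes, while 6.44% of all tested genes had groups that did not overlap. Fitted values were lower in exercised bone for 5 of the 6 genes and higher for Runx2. The median log2 fold difference was -0.80 over the 6 genes and 0.0092 over all genes tested. With all 6 libraries kept, limma voom, which averages log2 values, put 3 genes lower and 3 higher with a median of 0.59, and the fit with a replicate block likewise put 3 lower and 3 higher with a median of 0.51.

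The log2 fold difference of exercised over control was -1.17 for Col1a1 (SE 1.26, 95% interval -4.20 to 1.86, adjusted p = 0.89) and -0.96 for Col1a2 (SE 1.13, -3.67 to 1.76, adjusted p = 0.89) by edgeR. It was -0.65 for Sparc (SE 0.74, -2.42 to 1.12) and -1.01 for Spp1 (SE 1.85, -5.45 to 3.43). Bglap stood at -0.49 (SE 1.66, -4.48 to 3.50) and Runx2 at 0.29 (SE 1.13, -2.43 to 3.01), with edgeR adjusted p-values of 0.89 to 0.96 for these 4 genes. The intervals include large differences in both directions, so at this spread the data show neither a difference nor its absence.

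The direction depended on single animals. Without control replicate 2, the library rich in all 6 transcripts, every fitted difference was positive: 1.12 for Col1a1, 0.89 for Col1a2, 0.032 for Sparc, 2.99 for Spp1, 2.63 for Bglap and 2.59 for Runx2, with adjusted p-values of 0.54 to 0.99 by edgeR. Runx2 alone had an interval above 0 in that fit (0.63 to 4.55, unadjusted p = 0.018 and adjusted p = 0.54 by edgeR), where 1315 of 14725 genes (8.93%) had an unadjusted p under 0.05. Without control replicate 3, all 6 were negative, from -1.70 for Col1a1 to -0.25 for Runx2. Runx2 was also negative without control replicate 1 (-0.13) or exercised replicate 3 (-0.22). Without replicate 3 of both groups, the libraries at the ends of the first component, all 6 were negative, from -1.24 for Col1a1 to -0.60 for Sparc, with adjusted p-values of 0.999 by edgeR. The group medians were higher in exercised bone for all 6 genes, as for 57.8% of tested genes. A lower mean with a higher median in exercised bone was found in 5 of the 6, and in 8.003% of tested genes.

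**Figure D3:**
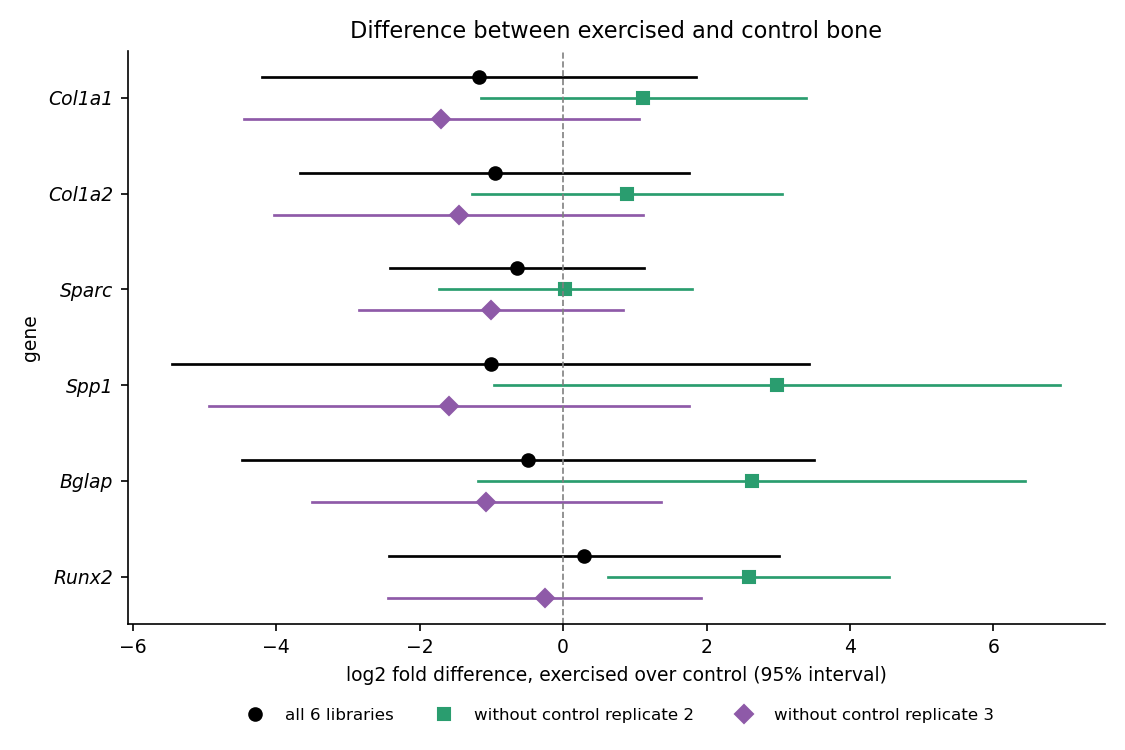
Log2 fold difference of exercised over control bone for each gene with its 95% interval (edgeR), from all 6 libraries and without control replicate 2 or 3. All 6 points are positive without control replicate 2 and negative without control replicate 3, and every interval except that of Runx2 without control replicate 2 includes 0.

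Set against Col1a1 within the same library, the genes could be compared without scaling between libraries. Bglap had 2.44, 3.17 and 5.86 counts per 100 Col1a1 counts in exercised replicates 1, 2 and 3. In control replicates 1, 2 and 3 it had 1.40, 2.03 and 0. Every exercised value lay above every control value, a pattern that 2.75% of the 14494 other tested genes showed in either direction relative to Col1a1, 2.72% with exercised above control. The mean was 3.824 ± 1.801 per 100 in exercised and 1.14 ± 1.04 in control bone (SD, n = 3 each; two-sided exact permutation test of the log2 ratio, p = 0.1, the smallest possible, and 0.25 adjusted over 5 ratios). The log2 ratio was 3.19 higher in exercised bone with the pseudocount of 0.5 that the 0 requires, 1.08 higher without control replicate 3 and 0.72 higher without replicate 3 of both groups. Without control replicate 2, whose ratio was the highest of the controls, it was 4.38 higher. The groups did overlap when Bglap was set against Col1a2 or Sparc. Per Col1a2 count, control replicate 2 (1512 Bglap and 39818 Col1a2 counts) lay above exercised replicate 1 (391 and 11251). Per Sparc count, control replicate 2 (34416 Sparc counts) lay above every exercised library, the nearest being exercised replicate 3 (191 Bglap and 4480 Sparc counts).

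Runx2 had 0.724, 1.18 and 11.97 counts per 100 Col1a1 counts in exercised replicates 1, 2 and 3, and 0.699, 0.671 and 0.545 in control replicates 1, 2 and 3. The control ratios to Col1a1 lay close together, at 0.638 ± 0.082 (SD, n = 3), although their Runx2 levels differed 49.5-fold. That of control replicate 3 rests on 13 Runx2 counts, with an exact 95% binomial interval of 0.290 to 0.933. Exercised replicate 3 stood far above the rest, and the mean in exercised bone of 4.62 ± 6.36 (SD, n = 3) is mostly that animal. The groups did not overlap, as for 2.75% of the 14494 tested genes relative to Col1a1. However, the exact 95% binomial interval of exercised replicate 1, 0.598 to 0.869, overlapped that of control replicate 1, 0.525 to 0.913. The exact permutation test gave p = 0.1 and 0.25 adjusted over 5 ratios. The mean log2 ratio was 1.75 higher in exercised bone, 0.52 higher without exercised replicate 3 and 0.43 higher without replicate 3 of both groups. Relative to Col1a2 the groups did overlap, with control replicate 2 (499 Runx2 and 39818 Col1a2 counts) above exercised replicate 1 (116 and 11251). The same order held for these libraries relative to Sparc (34416 and 14429 Sparc counts).

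Spp1 and Sparc overlapped between the groups relative to Col1a1. There were 6.48, 14.3 and 7.58 Spp1 counts per 100 Col1a1 counts in exercised replicates 1, 2 and 3, against 3.51, 9.92 and 0.251 in control replicates 1, 2 and 3 (two-sided exact permutation test, p = 0.3, adjusted 0.5). Sparc had 90.04, 99.7 and 137 in exercised replicates 1, 2 and 3, against 179, 46.3 and 303 in control replicates 1, 2 and 3 (the same exact test, p = 0.7, adjusted 0.7). Control replicate 3 held the most Sparc and the least Spp1 for its Col1a1, and control replicate 2 the least Sparc.

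**Figure D4:**
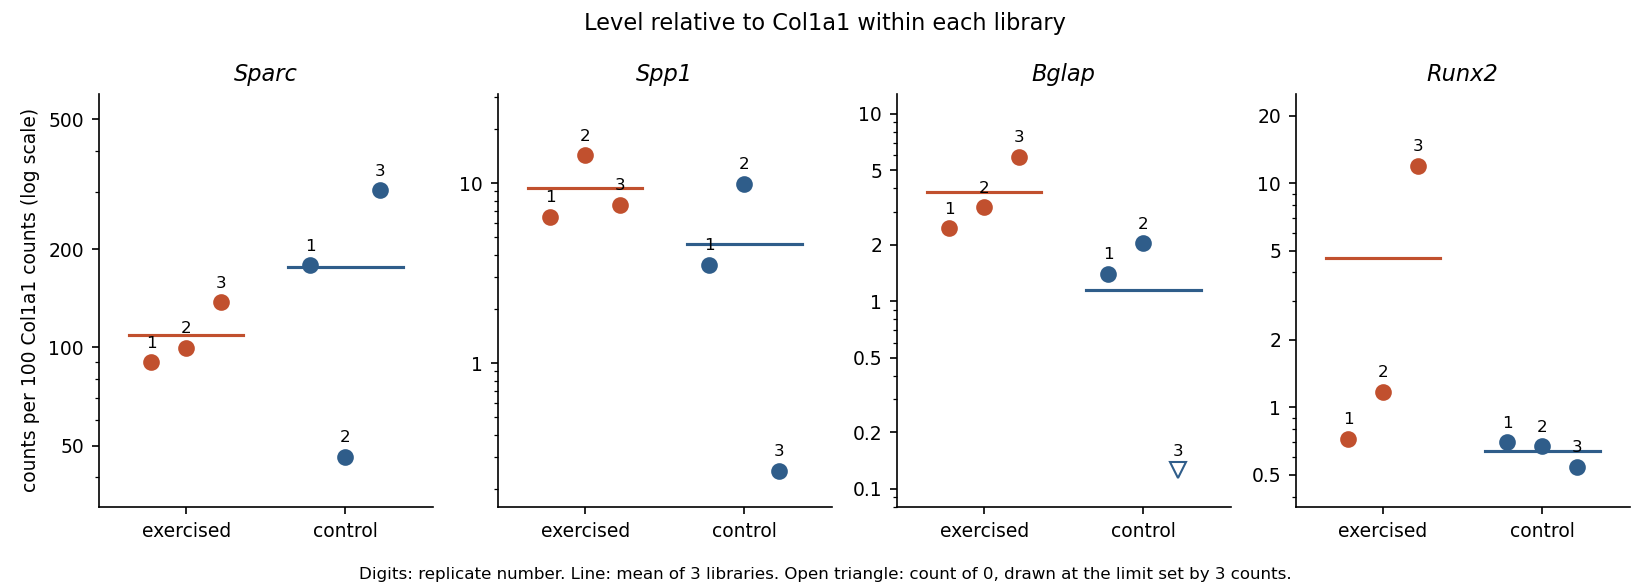
Counts of Sparc, Spp1, Bglap and Runx2 per 100 Col1a1 counts in each library (log axis); digits are replicate numbers, lines are group means and the open triangle is a count of 0 drawn at the limit that 3 counts set. The exercised and control points do not overlap for Bglap and Runx2, and exercised replicate 3 has the highest Runx2 value, 11.97.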

How the data were processed

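Total RNA from bone of 3 exercised and 3 control rats was sequenced, and 1 table with a whole number per Ensembl gene and library was deposited. The deposited values were treated as read counts: the headers say FPKM, but all values are whole and the totals would then need a mean target length of 55.2 to 71.1 nt. The submitters' processing notes list the tools edgeR, StringTie, HISAT2 (2.1.0), fastp (0.19.5) and CASAVA (1.8) without their roles, and name human and mouse builds. The rat build and the strand setting were not given in the sources used here.

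CPM is a count relative to the library total. The test was edgeR 4.0.16 (R 4.3.3), quasi-likelihood, TMM scaling, filterByExpr (minimum count 10, minimum total 15), no covariate, adjusted p threshold 0.05; SE is the absolute log2 fold difference over the square root of F. All 6 genes passed the filter. Alternatives were DESeq2 1.42.0, limma voom 3.58.1, other scalings, no filter, a replicate block and leaving out libraries. Log2 ratios used a pseudocount of 0.5. Intervals and limits cover counting error only, except those of fold differences. P-values reflect the variation among the 6 libraries, each described as a separate rat. Lists of bone and cell type genes fixed by symbol could not be tested. The genes and lists were chosen with earlier results of these data known; by rule, the 2 genes with the highest and the 2 with the lowest correlation to type I collagen are also named.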

Additional observations from a re-analysis of the deposited data

How the results depend on the processing

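None of the 6 genes passed an adjusted p of 0.05 in any of the 14 alternatives, and 13 of these gave 0 genes in all, while DESeq2 gave 1. Direction was less stable. Leaving out 1 library moved the log2 fold difference from -1.70 to 1.12 for Col1a1, -1.46 to 0.89 for Col1a2, -1.004 to 0.032 for Sparc, -1.91 to 2.99 for Spp1, -1.07 to 2.63 for Bglap and -0.25 to 2.59 for Runx2, the upper value each time without control replicate 2. Without control replicate 3 and exercised replicate 3 together, Runx2 stood at -0.77. Limma voom, which averages log2 values, gave 1.64 for Spp1, 2.70 for Bglap, 1.38 for Runx2 and -0.21 for Col1a1. The replicate block gave 0 genes and turned Spp1 to 1.72 and Bglap to 1.91, with Col1a1 at -0.27, Col1a2 at -0.44, Sparc at -0.66 and Runx2 at 1.29. The labels do not say whether equal replicate numbers mark anything shared. Same-numbered libraries deviated from their groups with correlations of 0.31, -0.41 and -0.49. With 3 libraries a group these values cannot settle whether the libraries are paired, so the block is given only as an alternative. The cause of these turns was not tested. Scaling and filter alternatives kept the direction of all 6.

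The exercised minus control difference in mean log2 ratio of Col1a1 to Col1a2 ran from -0.051 to 0.33 when 1 library was left out. For Sparc to Col1a1 this difference ran from -1.12 to 0.24. Without replicate 3 of both groups the differences were -0.074 and 0.059. With 1 library left out, the same differences for the ratios to Col1a1 of Spp1 (0.59 to 3.18), Bglap (1.08 to 4.38) and Runx2 (0.52 to 2.54) stayed positive. The summed share differed by -0.444 to 0.0855 percentage points. With 3 animals a group, these exact tests could not pass 0.05. Counts of 0 to 13 limit Spp1, Bglap and Runx2 in control replicate 3.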
